A study of Mus musculus with 23 samples.

Results

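The effect of Rfx1 knockdown (KD) on the transcripts of late mouse zygotes was examined by comparing 3 libraries from siRfx1 zygotes with 3 from siCtrl zygotes, 6 of the 23 RNA-seq libraries of the series. The libraries were selected by their labels, that is, by stage and siRNA. siRNAs against Rfx1, or a random control siRNA, were injected into oocytes of B6D2F1 (C57BL/6xDBA/2) females while they were still at the germinal vesicle stage, that is, arrested in meiosis. Both groups therefore share the injection, maturation in vitro in medium with hCG, fertilization, culture in Q2 medium and removal of the zona pellucida with protease, and neither carries a genetic change. The labels place the collection at 14 h post fertilization. They do not give the females' age, how many embryos went into a library or whether the libraries came from separate collections, and a p-value here compares a difference with the scatter among these libraries only, which may be partly technical. The labels name fertilization by incubation with sperm and culture in Q2 medium. The methods of the study name sperm injection, another culture medium and a later collection, and they state the females' age. The siRNAs for a gene were a mix, without a second independent set, so an effect of Rfx1 loss and an off-target effect of the mix cannot be told apart.

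RFX1 is the founding member of the RFX family of transcription factors, which bind DNA through a winged-helix domain. Their binding element, the X-box, is an imperfect inverted repeat, and RFX1 can both activate and repress a promoter. RFX proteins are known from the genes of cilia and from the MHC class II promoters, where RFX5 works with RFXAP and RFXANK. The late zygote lives mostly on RNA stored by the oocyte while the first transcription of its own genome starts, so an siRNA given to the oocyte can reduce both the stored and the newly made RNA of its target.

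The X-box was searched in the mm9 sequence as GTNNCCNNGGNNAC, a palindrome that reads the same on both strands, and its half-site as GTTGCC on either strand, from 250 bases before to 50 after each annotated start. The full motif was found at 460 of 22560 genes (2.04%) and the half-site at 2801 (12.4%). The promoters of Phc2, a Polycomb gene, and Chd4, a nucleosome remodeller, are shown because they were among the 5 genes with the full motif and the lowest p in the comparison. The promoter of Rfx1 itself is shown because it holds a half-site next to the start and no full motif. The stretches run 5′ to 3′ on the + strand of mm9, with the match in capitals: Phc2 at chr4:128331766-128331865, Chd4 at chr6:125045941-125046060 and Rfx1 at chr8:86590635-86590759.
Phc2: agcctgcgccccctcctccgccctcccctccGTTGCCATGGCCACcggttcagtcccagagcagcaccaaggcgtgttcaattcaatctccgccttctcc
Chd4: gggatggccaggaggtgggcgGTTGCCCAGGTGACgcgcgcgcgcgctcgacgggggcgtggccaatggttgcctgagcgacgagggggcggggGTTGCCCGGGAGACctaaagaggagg
Rfx1: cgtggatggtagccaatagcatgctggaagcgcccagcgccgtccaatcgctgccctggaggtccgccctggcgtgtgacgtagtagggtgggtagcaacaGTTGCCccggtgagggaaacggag
The match lies 149 bases before the start of Phc2, and the matches of Chd4 lie 219 and 146 bases before its start. A match is a description of the letters and not a site of binding.

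Rfx1 RNA, the target of the siRNAs, was low in every siRfx1 library. Rfx1 (NM_009055, chr8:86590735-86620891 on the + strand, 21 exons) was at 3.05, 3.26 and 3.52 FPKM (the fragments of a gene scaled to transcript length and library size) in siCtrl zygotes and at 0.443, 0.149 and 0.481 FPKM in siRfx1 zygotes. Every siRfx1 library lay below every control, and the mean of 0.358 ± 0.181 FPKM (SD, n = 3) was 10.9% of the control mean of 3.28 ± 0.232 FPKM (n = 3). The log2 fold change, on log2(FPKM + 1) as throughout, was -1.57 with an SE of 0.247. This did not pass the test over all genes, with an adjusted p of 0.167 in limma and an unadjusted p of 0.000149. The exact two-sided permutation test of the 6 values gave p = 0.1, which is the lower limit for groups of 3. In siMlx zygotes, which were not given its siRNAs, Rfx1 was below every control as well (1.29, 0.864 and 1.33 FPKM) without passing the test (adjusted p = 0.102), and it spread widely in siEtv5 zygotes (7.18, 2.09 and 5.48 FPKM).

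The level of Rfx1 rested on few reads. The covered bases of its transcript correspond to 49.3, 57.6 and 73.9 reads of 150 bases in siCtrl zygotes, and to 7.33, 3.8 and 12.7 reads in siRfx1 zygotes. In the controls 84.5 to 84.6% of these bases lay in the last exon, and only 5 or 6 of the 21 exons were covered at all. The siRfx1 libraries had 2 or 3 covered exons.

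**Figure D1:**
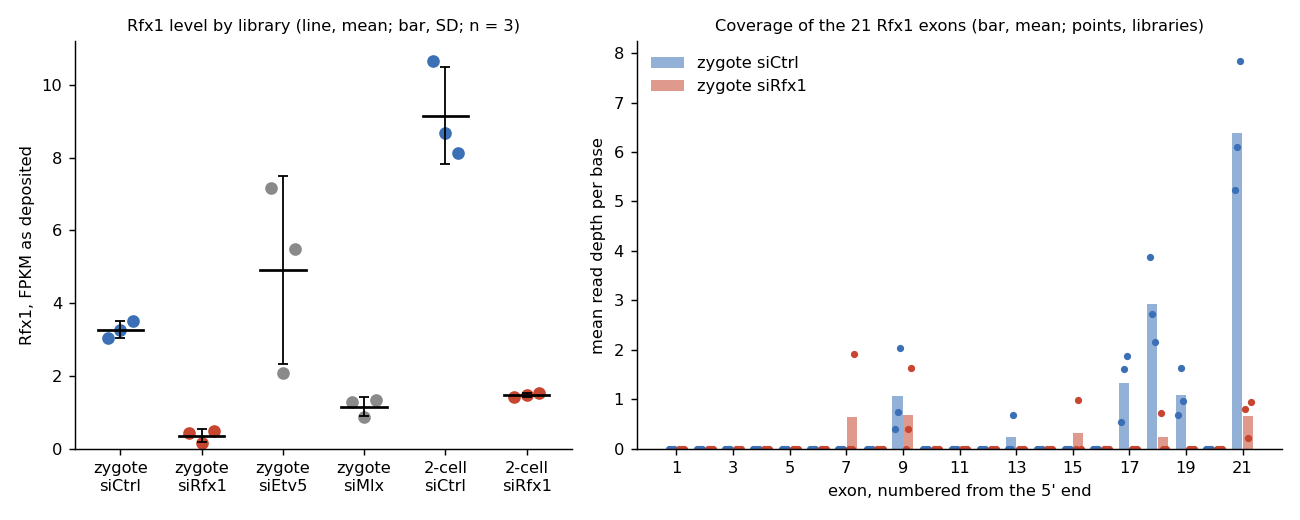
Rfx1 by library (left, FPKM as deposited, with the mean as a line and the SD as a bar, n = 3) and mean read depth per base over its 21 exons numbered from the 5′ end (right, bars are means and points are libraries). The siRfx1 zygotes sit between 0.149 and 0.481 FPKM, below the siCtrl zygotes at 3.05 to 3.52 FPKM, and most of the depth lies in the last exon.

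Across the transcriptome few genes passed the test between Rfx1 KD and control zygotes. Rfx1 itself did not pass, so the number of calls does not measure the size of the difference. Of 9001 genes tested, 4 rose and 1 fell by the rule for a call (adjusted p below 0.05, more than 2-fold), which is 0.0555% of the genes tested (0.0444% higher and 0.0111% lower). Hnrnpab, Gps1, 2310061J03Rik and Defb41 rose, and Mir700 fell. Over all genes the median difference was 0.00 on the log2 scale, the middle 50% of genes lay between -0.25 and 0.25, and the median SE of a gene was 0.232. A fold above 2 in either direction was seen for 204 genes. At an unadjusted p under 0.05, 691 genes were higher (7.68%) and 620 lower (6.89%), together 14.6%. That split depends on the scaling, since with FPKM as deposited the median of all genes moved to -0.14 and the split became 309 higher and 1073 lower. On the rescaled values, which are used for every count of genes without overlap, the groups did not overlap for 1959 genes (21.8%), 880 higher (9.78%) and 1079 lower (12%).

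The groups differed somewhat in depth and in the number of genes detected. The aligned bases came to 580, 635 and 756 Mb in siCtrl zygotes and to 595, 915 and 949 Mb in siRfx1 zygotes, so 2 of the 3 KD libraries were deeper than every control. The controls held 8961 to 9350 genes at 1 FPKM or above and the KD libraries 8448 to 8899, fewer in every KD library than in any control, and the part of this in the values below was not tested. Pearson's r of log2(FPKM + 1) across genes was 0.949 to 0.966 between control libraries, 0.953 to 0.968 between KD libraries and 0.921 to 0.960 between the groups. The reads were amplified without molecular identifiers, so the depth does not count molecules.

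**Figure D2:**
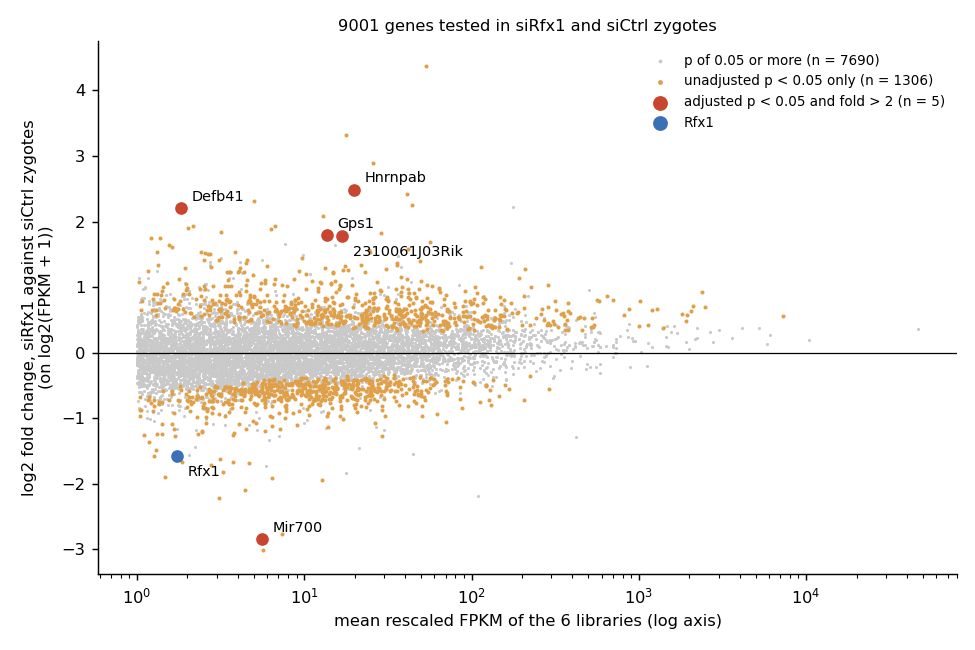
Log2 fold change of siRfx1 against siCtrl zygotes for the 9001 genes tested, against the mean rescaled FPKM of the 6 libraries on a log axis. The 5 genes that passed the test are marked, the median is 0.00 and the middle 50% of genes lie between -0.25 and 0.25.

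Hnrnpab, which encodes a nuclear ribonucleoprotein that binds RNA and accompanies mRNA processing, had the largest rise among called genes with a level above 0 in the controls. It was at 4.96, 5.19 and 6.37 FPKM in siCtrl zygotes and at 35.4, 24.0 and 37.4 FPKM in siRfx1 zygotes. The groups were far apart, with a log2 fold change of 2.49 (SE 0.230) and an adjusted p of 0.0218. The call ended without siRfx1 replicate 3 (adjusted p = 0.0864) and held when any other library was left out. The gene lies at chr11:51413602-51420383 on the - strand of mm9, and its last exon spans exon 12 of Agxt2l2 on the opposite strand. Over these 54 bases the reads of the 2 genes cannot be told apart. Exon 12 of Agxt2l2 was listed at a depth of 0 in every siCtrl and siRfx1 library. Agxt2l2 was listed at 0 in the 3 controls and at 1.75, 1.43 and 0.833 FPKM in the KD zygotes.

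Gps1 encodes subunit 1 of the COP9 signalosome, the complex that removes NEDD8 from cullin ubiquitin ligases. It was at 4.90, 5.90 and 6.72 FPKM in siCtrl zygotes and at 14.2, 22 and 26.4 FPKM in siRfx1 zygotes. The lowest KD library was above the highest control, and Gps1 rose by 1.79 on the log2 scale (SE 0.217, adjusted p = 0.0461). The call held without siRfx1 replicate 1 and ended when any other library was left out, at adjusted p-values of 0.0809 to 0.128. It lies at chr11:120645586-120650416 on the + strand.

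2310061J03Rik, a single-exon non-coding RNA at chr16:55973381-55974730 on the - strand, was at 5.95, 7.54 and 8.70 FPKM in siCtrl zygotes and at 24.7, 19.9 and 30.4 FPKM in siRfx1 zygotes. Its rise of 1.78 (SE 0.223) had an adjusted p of 0.0492, just under the threshold. The call held without siRfx1 replicate 2 and ended when any other library was left out (0.0818 to 0.149). It overlaps an exon of Zbtb11, a zinc finger gene on the opposite strand, which did not pass (10.8, 11.1 and 8.18 against 8.65, 5.41 and 7.70 FPKM).

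Defb41, a beta-defensin gene, was listed at 0 in all 3 siCtrl libraries and at 3.40, 4.34 and 2.64 FPKM in siRfx1 zygotes, with an adjusted p of 0.0461. Its mean is under the 5 FPKM of the naming rule, and it is given because it is among only 5 genes that passed. It shares an exon with Gm15386 on the same strand, so the assignment of its reads is uncertain. No fold is given against a group at 0. The call ended when any library was left out (0.0706 to 0.164), and in every other alternative that gave a value.

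Mir700, an annotated microRNA hairpin of 79 bases at chr4:134972470-134972548 on the - strand, was the only gene that fell. It was at 7.75, 8.75 and 17.3 FPKM in siCtrl zygotes and at 0.625, 0.462 and 0.406 FPKM in siRfx1 zygotes. The fall of 2.85 on the log2 scale (SE 0.307) had an adjusted p of 0.0379. The call held when any control was left out and ended without any one of the siRfx1 libraries (0.0566, 0.0611 and 0.127). The hairpin overlaps 44 bases of the last exon of Rcan3, a regulator of calcineurin on the same strand. In these libraries of long cDNA the value of Mir700 holds the reads assigned to its own record. It measures neither all RNA over the hairpin nor the mature microRNA. Rcan3 itself was at 12.9, 27.1 and 25.4 FPKM in siCtrl zygotes and at 47.8, 44.7 and 51.7 FPKM in siRfx1 zygotes, which did not pass the test (log2 fold change 1.34, SE 0.283, adjusted p = 0.233).

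The coverage of single exons was set beside these differences. The last exon of Rcan3, of 4290 bases, had a mean read depth of 0 in the 3 siCtrl libraries and of 14.0, 25.5 and 27.2 in the siRfx1 libraries. The 4 exons before it were covered in every library of both groups, at a depth of 16.9 to 316 in the controls and 29.6 to 355 in the KD zygotes. In the other zygote groups the last exon of Rcan3 was at 30.1, 0 and 23.2 (siEtv5) and at 11.5, 23.3 and 0 (siMlx). The libraries with that exon at 0 were the same ones in which Mir700 was high, including siEtv5 replicate 2 at 9.47 FPKM and siMlx replicate 3 at 5.93 FPKM.

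Hnrnpab and Gps1 showed a like pattern. The last exon of Hnrnpab had a depth of 0.540, 0.184 and 0.402 in siCtrl and of 13.2, 24.3 and 27.9 in siRfx1 zygotes. Its first exon, of 215 bases, was at 0, 0.200 and 0 in the controls and at 114, 104 and 165 in the KD libraries, while its second exon was covered in all but siRfx1 replicate 2. The last exon of Gps1 was at 0.203, 0.0498 and 0.103 in siCtrl and at 10.5, 40.8 and 67.2 in siRfx1 zygotes, and its first exon was covered in all 6 libraries. Over all genes tested, 5 had a last exon under a depth of 1 in every control and over 5 in every KD library, namely Azin1, Gps1, Hnrnpab, Rcan3 and Slc3a2. The reverse was found for Prrc2a and Rfx1. A last exon under 1 in at least 1 of the 6 libraries and over 5 in at least 1 other was found for 475 genes (5.28% of those tested). The part of this on-and-off coverage of exons in the 5 calls was not tested.

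**Figure D3:**
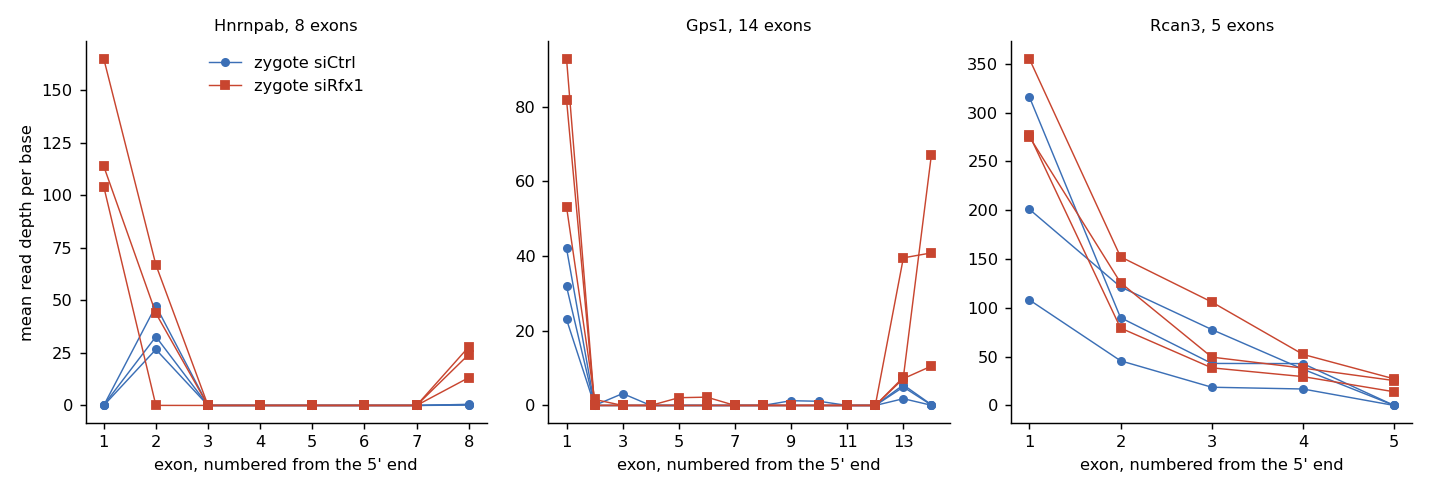
Mean read depth per base of the exons of Hnrnpab, Gps1 and Rcan3 in the 6 zygote libraries, numbered from the 5′ end. In the last exon of Rcan3 the siCtrl libraries are at 0 and the siRfx1 libraries at 14.0 to 27.2, and in the first exon of Hnrnpab the siCtrl libraries are at 0 to 0.200 and the siRfx1 libraries at 104 to 165.

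The other KD groups give the reach of these values. Hnrnpab was at 26.0, 42.9 and 23.2 FPKM in siEtv5 zygotes and at 44.0, 8.66 and 19.1 FPKM in siMlx zygotes. Gps1 was at 9.73, 9.90 and 29.0 FPKM and at 17.9, 22 and 14.0 FPKM, and 2310061J03Rik at 7.82, 8.62 and 17.1 FPKM and at 19.3, 19.7 and 11.8 FPKM. All of these lay above all 3 siCtrl values of the gene, save 2310061J03Rik in siEtv5 zygotes, where the lower 2 libraries lay among the controls. Gps1 and 2310061J03Rik also passed in limma in siMlx zygotes against these controls (log2 fold changes 1.77 and 1.39, adjusted p = 0.0243 and 0.0414). Hnrnpab did not pass there (adjusted p = 0.0531). Mir700 was at 0.403, 9.47 and 0.495 FPKM in siEtv5 zygotes and at 0.789, 0.537 and 5.93 FPKM in siMlx zygotes, and Defb41 at 1.79, 0 and 2.07 FPKM and at 2.97, 0 and 0 FPKM. These groups were set against the same 3 siCtrl libraries, so the comparisons are not independent.

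Rfx1 KD zygotes were therefore also compared with siEtv5 and siMlx zygotes directly, which brings in none of the controls. Against siEtv5 zygotes 1 of 8838 genes passed (0.0113%), higher in siRfx1, and none was lower in limma, with 347 higher (3.93%) and 317 lower (3.59%), together 7.51%, at an unadjusted p under 0.05. The gene is Atp6v0c, which encodes the proton-carrying ring subunit of the vacuolar ATPase. It was listed at 0 in the 3 siEtv5 libraries, at 146, 137 and 255 FPKM in siRfx1 zygotes and at 0, 247 and 270 FPKM in siCtrl zygotes, so the value of a single control also lay at 0. Against siMlx zygotes 10 of 8713 genes passed (0.115%), 4 higher (0.0459%, namely Atp6v0c, Eif3i, Susd3 and Snord104) and 6 lower (0.0689%, namely Romo1, Atp5f1, 1700019M22Rik, Mt2, Plekha2 and Sec11c). At an unadjusted p under 0.05 there were 417 higher (4.79%) and 416 lower (4.77%), together 9.56%. The limit given for the record of Mir700 holds for the small nucleolar RNA Snord104 as well. None of the 5 genes called against siCtrl passed in either direct comparison. The adjusted p of Hnrnpab was 0.946 against siEtv5 and 0.754 against siMlx, and that of Rfx1 against siEtv5 was 0.541 (log2 fold change -2.01). Against siCtrl zygotes, siEtv5 zygotes had 0 calls in limma (690 higher, 7.66%, and 429 lower, 4.76%, at an unadjusted p under 0.05), and siMlx zygotes had 101 higher (1.13%) and 91 lower (1.02%).

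Next in order of p stood genes that did not pass the test but whose groups did not overlap, among genes of at least 5 FPKM and a fold above 1.5. Those with the higher KD values were Azin1, Gm4301, Nfkbiz, Atpif1, Olfr283, Fbxw14 and Tdp1, with log2 fold changes of 0.93 to 1.45 and adjusted p-values of 0.150 to 0.233. Azin1, the antizyme inhibitor that sustains polyamine synthesis, was at 9.18, 12.3 and 11.6 FPKM in siCtrl and at 24.1, 27.6 and 22.4 FPKM in siRfx1 zygotes. Nfkbiz, a nuclear regulator of NF-κB target genes, was at 7.06, 11.4 and 8.51 against 18.2, 18.5 and 22.9 FPKM. Fbxw14, of a cluster of oocyte F-box genes whose near-identical copies share reads, was at 191, 138 and 149 against 278, 337 and 243 FPKM. In siMlx zygotes Azin1 was at 30.2, 30.2 and 30.4 FPKM, Atpif1 at 26.1, 18 and 27.7 FPKM and Fbxw14 at 514, 383 and 721 FPKM, and all 3 passed there against the same controls (adjusted p = 0.0170, 0.0194 and 0.0170). Gm4301, at 20.1, 12.5 and 20.9 FPKM there, passed as well (adjusted p = 0.0243), while Nfkbiz, Olfr283 and Tdp1 did not. The others are Atpif1, the inhibitor of the mitochondrial ATP synthase, Tdp1, a DNA repair enzyme that removes stalled topoisomerase 1, the olfactory receptor gene Olfr283 and the predicted gene Gm4301.

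Those with the lower KD values were Snora21, U2af2, Sirt1, Usf2, Ei24, Usp7, Ldb1, Smurf2 and Brd1, with log2 fold changes of -3.01 to -0.68 and adjusted p-values of 0.0978 to 0.233. Snora21, a small nucleolar RNA of the kind that guides pseudouridylation, was at 15, 7.99 and 11.4 FPKM in siCtrl and at 0, 0 and 1.90 FPKM in siRfx1 zygotes. As with Mir700, this value holds the reads of long cDNA assigned to its own record and does not measure the small RNA itself. U2af2, the splicing factor that reads the polypyrimidine tract before the 3′ splice site, was at 12.7, 11.7 and 12.1 against 4.8, 5.97 and 5.01 FPKM. Sirt1, an NAD-dependent deacetylase, was at 13.6, 8.51 and 10.7 against 3.38, 4.81 and 3.19 FPKM. In each of these genes every KD library lay below every control.
Usf2, a basic helix-loop-helix factor that binds E-boxes and a candidate regulator of genome activation in the study, was at 24.1, 22.1 and 21.7 FPKM in siCtrl and at 9.86, 12.6 and 10.8 FPKM in siRfx1 zygotes. Usp7, a deubiquitinase that acts on the p53 regulator MDM2, was at 54.9, 49.2 and 46.5 against 19.8, 28.8 and 27.8 FPKM. Brd1, a scaffold of histone acetyltransferase complexes, was at 66.6, 68.1 and 68.8 against 31.4, 39.4 and 42.3 FPKM. The groups were apart in each of these genes without reaching the threshold. All 3 passed in siMlx zygotes against the same controls, with Usf2 at 9.09, 5.86 and 6.53 FPKM (adjusted p = 0.0317), Usp7 at 20.3, 14.4 and 23.6 FPKM (0.0460) and Brd1 at 24.9, 24.9 and 27.5 FPKM (0.0385). In siEtv5 zygotes none of the 3 passed, and Usf2 was at 29.2, 16.3 and 16.3 FPKM. Of the genes named in these paragraphs, none had an adjusted p under 0.05 against siEtv5 or siMlx zygotes.

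**Figure D4:**
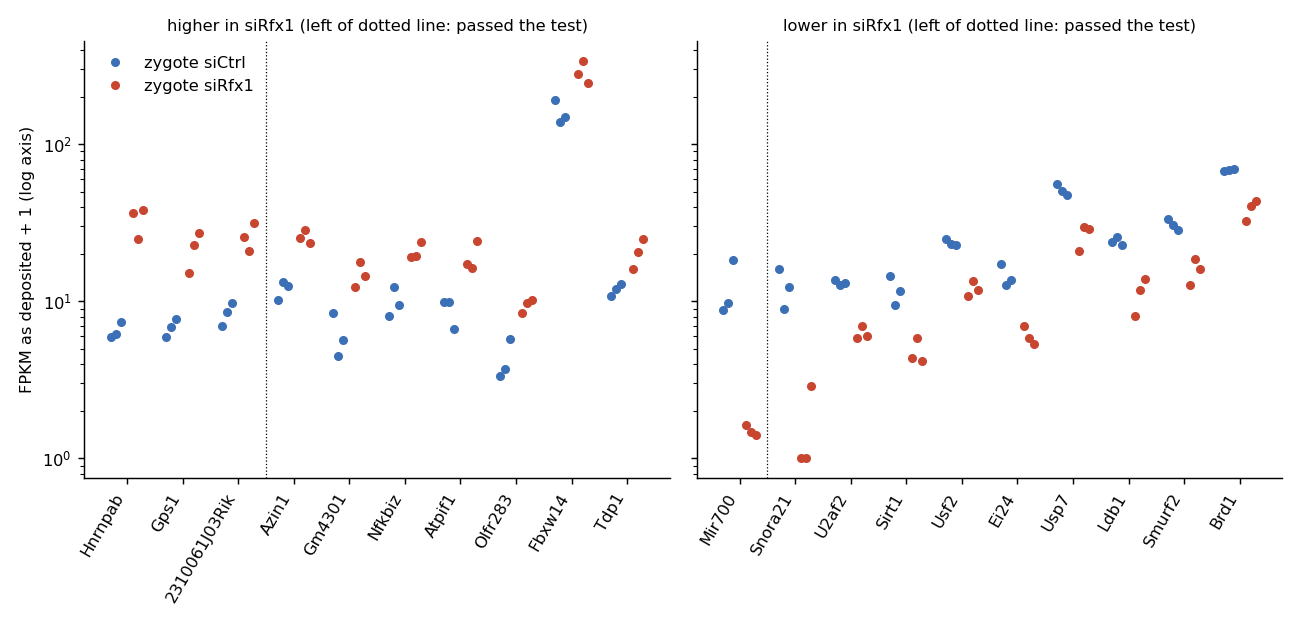
FPKM of the genes that passed the test, apart from Defb41 (left of each dotted line), and of those next in p that did not (right), in 3 siCtrl and 3 siRfx1 zygote libraries, on a log axis. The groups do not overlap in any gene shown, by the rule that chose the genes on both sides of the line.

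The RFX family was represented mainly by Rfx5, Rfx7, Rfx2 and Rfxap. Of its 10 genes in the annotation 6 were tested and none passed. Their median log2 fold change was -0.39 beside 0.00 for all genes. At an unadjusted p under 0.05, 0 were higher and 2 lower (Rfx1 and Rfxap), or 33.3% lower beside 6.89% of all genes. Without Rfx1, the target itself, the median of the other 5 was -0.18, with 1 lower. Rfxap, a partner of RFX5 at MHC class II promoters, was at 9.85, 10.5 and 11.2 FPKM in siCtrl zygotes and at 4.18, 5.59 and 6.58 FPKM in siRfx1 zygotes. These groups did not overlap, at a log2 fold change of -0.71 (SE 0.183) and an adjusted p of 0.233. Rfx2, a close relative of RFX1 with a role in ciliated cells and itself with a full motif in its promoter, was at 6.60, 6.67 and 7.0 against 2.92, 2.63 and 6.24 FPKM. In siMlx zygotes Rfx2 was at 1.43, 1.16 and 2.19 FPKM and passed in limma against the same controls (adjusted p = 0.0385). Rfxap was at 7.20, 5.50 and 3.47 FPKM there without passing (adjusted p = 0.2). Lower values of these 2 genes were thus not particular to siRfx1 zygotes. Rfx5 lay at 13.8 to 25.9 FPKM and Rfx7 at 4.96 to 8.03 FPKM over the 6 libraries, with overlapping groups. Rfxank, the third part of the RFX5 complex, was under 1 FPKM in all but siRfx1 replicate 2, at 6.60 FPKM. Rfx4 was at 1.15, 1.32 and 1.26 against 0.408, 0.636 and 0.585 FPKM, below the filter, Rfx3 stayed under 0.3 FPKM, and Rfx6 and Rfx8 were listed at 0.

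Genes with the X-box in the promoter had shares and medians close to those of all genes. Of the 213 tested genes with the full motif, 13 were higher and 17 lower at an unadjusted p under 0.05 (14.1%), at a median log2 fold change of -0.03. Of the 1148 with the half-site, 78 were higher and 79 lower (13.7%), at a median of -0.02. Over all 9001 genes the share was 14.6%. The 5 motif genes with the lowest p were Chd4, Btbd17, Cml1, Phc2 and 4931428L18Rik, whose adjusted p-values were 0.233 to 0.238. Phc2 was at 94.2, 89.9 and 112 FPKM in siCtrl and at 22.5, 67.0 and 47.3 FPKM in siRfx1 zygotes, and Btbd17 at 6.89, 11.2 and 11.5 against 32.0, 21.5 and 17.3 FPKM. The groups did not overlap for either gene, with Phc2 lower and Btbd17 higher in the KD libraries.

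Among genes of the cilium, for which RFX factors are best known, 23 of 46 were tested, with a median log2 fold change of -0.01. At an unadjusted p under 0.05, 0 were higher and 1 lower (4.35%, beside 6.89% of all genes). That gene was Kif3b, a motor of transport into the cilium (13.6, 11.2 and 10.5 against 6.45, 8.57 and 8.25 FPKM, adjusted p = 0.334). Of 17 genes of the CCN family and others described as RFX1 targets 6 were tested, with a median of -0.10. Only Pcna, the sliding clamp of DNA replication, was higher at an unadjusted p under 0.05 (16.7%, beside 7.68% of all genes), and 0 were lower. Pcna was at 133, 131 and 138 against 132, 179 and 161 FPKM (adjusted p = 0.282). Centrosome genes had a median of -0.19 over 28 tested, with 2 higher (7.14%, beside 7.68% of all genes) and 5 lower (17.9%, beside 6.89%). No gene of these lists passed the test.

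Apart from the RFX family, the lists with the lowest medians were NuRD, the cytosolic ribosome, Polycomb and DNA methylation. The NuRD complex, which joins a CHD remodeller to histone deacetylases, had a median log2 fold change of -0.39 over 12 genes tested, with 1 higher and 2 lower (16.7%, beside 6.89% of all genes) at an unadjusted p under 0.05. Chd4, its remodeller, was at 26.1, 25.8 and 28 FPKM in siCtrl and at 12.3, 13.8 and 16.7 FPKM in siRfx1 zygotes (adjusted p = 0.233). Mta3, a subunit that bridges the complex, was at 23.0, 20.9 and 28 against 5.06, 11.8 and 16.6 FPKM. The histone-binding Rbbp7 lay the other way, at 667, 696 and 772 against 1085, 1091 and 861 FPKM.

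Polycomb genes, which silence developmental genes through marks on H2A and H3, had a median of -0.26 over 25 tested, with 1 higher and 7 lower at an unadjusted p under 0.05. The 7 were 28% of the members, beside 6.89% of all genes, and the KD libraries of 9 members (36%, beside 12% of all genes) all lay below the controls. The latter share was 33.3% for NuRD, 32.1% for centrosome genes, 31.8% for H3K4 and H3K9 methylation enzymes and 29.4% for remodellers. It was 23.1% for DNA methylation, 21.7% for acetyltransferases and BET proteins and 19% for the SIN3 and NCoR corepressors, so it was not particular to Polycomb. Kdm2b, which brings the complex to CpG islands, was at 55, 48.1 and 47.0 FPKM in siCtrl and at 24.1, 29.0 and 31.9 FPKM in siRfx1 zygotes. Suz12, a core part of the H3K27 methyltransferase, was at 154, 95.6 and 110 against 63.7, 64.3 and 46.4 FPKM. Their adjusted p-values were both 0.233, so they did not pass. Genes of DNA methylation had a median of -0.23 over 13 tested. Only Dnmt3l, the cofactor of the de novo methyltransferases, was lower at an unadjusted p under 0.05 (7.69%, beside 6.89% of all genes), and 0 were higher. Dnmt3l was at 10.2, 8.27 and 8.68 against 4.13, 4.55 and 4.69 FPKM. Corepressors of the SIN3 and NCoR kind had a median of -0.18 over 21 tested, remodellers -0.17 over 34, acetyltransferases and BET proteins -0.17 over 23, and H3K4 and H3K9 methylation enzymes -0.13 over 22.

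The cytosolic ribosomal proteins had a median of -0.27 over 50 tested, with 1 higher and 8 lower (16%, beside 6.89% of all genes) at an unadjusted p under 0.05. Rps6, whose protein is the S6 kinase target of the small subunit, was at 14.4, 9.48 and 9.78 FPKM in siCtrl and at 2.37, 6.36 and 5.54 FPKM in siRfx1 zygotes. Many of these genes have processed copies elsewhere in the genome that share reads, so single values are uncertain. The mitochondrial ribosomal proteins had a median of 0.08 over 64 tested, with 7 higher (10.9%, beside 7.68% of all genes) and 3 lower (4.69%).

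Among lists with at least 10 members tested, the highest medians were those of genes of the oocyte. Maternal-effect genes, including those of the subcortical maternal complex, had a median of 0.19 over 31 tested, with 7 higher (22.6%, beside 7.68% of all genes) and 0 lower at an unadjusted p under 0.05. The zona pellucida and oocyte-secreted factors had a median of 0.19 over 15, with 3 higher (20%) and 0 lower. None of them passed over all genes. H1foo, the oocyte linker histone, was at 511, 509 and 580 FPKM in siCtrl and at 523, 911 and 1182 FPKM in siRfx1 zygotes, and Gdf9, a growth factor the oocyte secretes, at 328, 265 and 320 against 304, 488 and 424 FPKM. As deposited, siRfx1 replicate 1 lay within the range of the controls for both. After rescaling it lay above them, with H1foo at 464, 494 and 553 FPKM in siCtrl and 618, 919 and 1182 FPKM in siRfx1 zygotes, and Gdf9 at 298, 257 and 305 against 359, 492 and 424 FPKM. Zar1, a binder of maternal mRNA, was at 304, 549 and 493 against 856, 549 and 638 FPKM.

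Of the 2-cell program, the burst of MERVL-linked transcripts that accompanies genome activation, 33 genes were tested, with a median of 0.13, 4 higher (12.1%, beside 7.68% of all genes) and 0 lower at an unadjusted p under 0.05 and none past the test. Dux, the factor that switches it on, was at 5.99, 4.86 and 4.95 FPKM in siCtrl and at 6.64, 15.5 and 13.6 FPKM in siRfx1 zygotes (log2 fold change 1.12, SE 0.252, adjusted p = 0.233). Zscan4c was at 8.28, 4.72 and 3.90 against 6.39, 10.3 and 7.70 FPKM. On the rescaled values that entered the test neither gene overlapped between the groups, though Zscan4c only just (7.51 FPKM in the highest control and 7.54 FPKM in the lowest KD library). Both belong to repeated gene clusters whose copies share reads. Pluripotency and early lineage factors had a median of -0.18 over 22 tested, with 0 higher and 4 lower (18.2%, beside 6.89% of all genes). Among the lower was Yap1, the effector of Hippo signalling (117, 95.9 and 107 against 61.8, 73.1 and 61.4 FPKM, adjusted p = 0.238).

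Lists tied to the procedure had medians between -0.12 and 0.17. Among them the RNA interference machinery had a median of -0.12 over 13 tested with none at an unadjusted p under 0.05. Interferon response genes had a median of 0.08 over 13, with 3 higher (23.1%, beside 7.68% of all genes) and 1 lower (7.69%, beside 6.89%). Heat shock proteins had a median of 0.17 over 56, with 6 higher (10.7%) and 1 lower (1.79%). Cell cycle genes had a median of 0.04 over 52, with 8 higher (15.4%) and 4 lower (7.69%). Splicing factors had a median of -0.01 over 59, with 5 higher (8.47%) and 6 lower (10.2%). The single list member that passed the test in any list was the splicing factor Hnrnpab. The other factors that the study singled out did not pass, with Etv5, its negative control, and Etv1, Nfya, Klf7, Srebf1 and Mlx at log2 fold changes of -0.12 to 0.13.

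**Figure D5:**
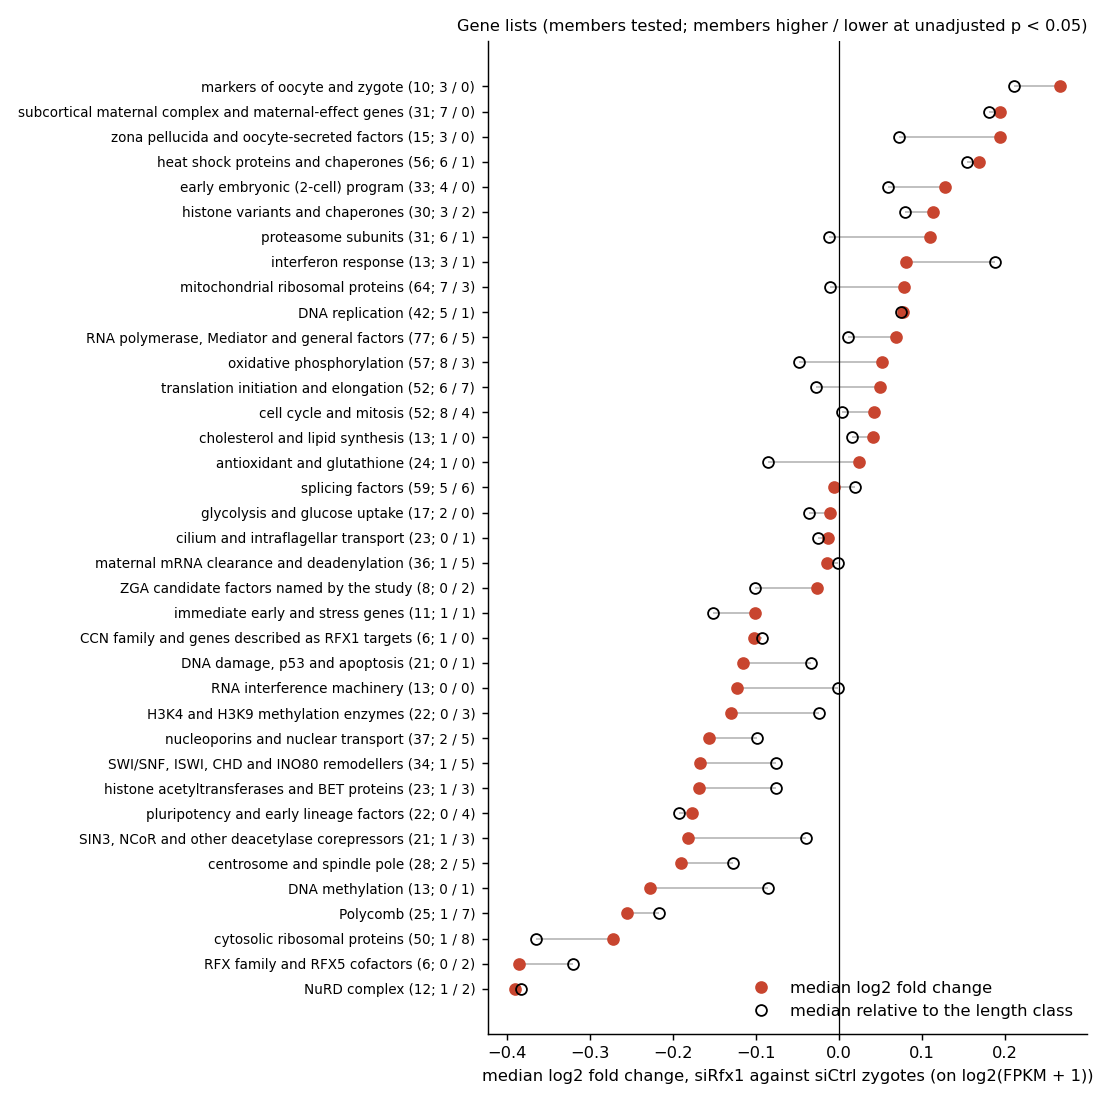
Median log2 fold change of siRfx1 against siCtrl zygotes for each gene list, with the number of members tested and of members higher and lower at an unadjusted p under 0.05. The medians run from -0.39 (NuRD) to 0.27 (oocyte markers) among the lists with at least 10 members tested, beside 0.00 for all genes.

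Transcript length moved with the difference between the groups. Genes under 1 kb had a median log2 fold change of 0.10 (799 genes), those of 1 to 2 kb 0.12 (2190), those of 2 to 4 kb 0.01 (3615) and those of 4 kb or more -0.14 (2397). At an unadjusted p under 0.05 the genes of 1 to 2 kb were 274 higher and 61 lower, and those of 4 kb or more 55 higher and 284 lower. Over all 9001 genes tested, 691 were higher (7.68%) and 620 lower (6.89%). Set against the median of their own length class, the medians became -0.38 for NuRD, -0.22 for Polycomb, -0.37 for the cytosolic ribosome, 0.18 for the maternal-effect genes, 0.07 for the zona and secreted factors, 0.06 for the 2-cell program and -0.09 for DNA methylation. The medians of the other chromatin lists lay nearer 0 on that scale, at -0.04 for the SIN3 and NCoR corepressors, -0.08 for the remodellers, -0.08 for the acetyltransferases and BET proteins and -0.02 for the H3K4 and H3K9 methylation enzymes. The part of length in any single value was not tested further.

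Genes that change from zygote to 2-cell stage were defined in siEtv5 embryos, which enter neither compared group. Of the 4137 genes that rose there (37.9% of those tested), 2262 were tested in zygotes, at a median of -0.09 with 86 higher (3.8%) and 183 lower (8.09%) at an unadjusted p under 0.05, beside 7.68 and 6.89% of all genes. Together these were 11.9% of the 2262 rising genes tested in zygotes, a smaller share than the 14.6% of all genes. Of the 2504 that fell there (23%), 2493 were tested, at a median of 0.11 with 311 higher (12.5%) and 106 lower (4.25%), together 16.7%. Stage genes defined in siMlx embryos (35.4% of genes rose and 29.2% fell) gave medians of -0.06 (2115 tested, 118 higher and 177 lower) and 0.08 (3020 tested, 321 higher and 132 lower), and relative to length class the medians of the siEtv5 lists were -0.08 and 0.09.

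Markers of the zygote were present throughout. All 10 oocyte and zygote markers were tested, and their summed level was 4357 to 4869 FPKM in siCtrl and 4756 to 5529 FPKM in siRfx1 zygotes. Of 20 markers of cumulus and granulosa cells only Serpine2, Cyp19a1 and Kitl passed the filter, and 9, Foxl2 and Amh among them, were listed at 0 in all 6 libraries. Their summed level was 73.1 to 91.4 FPKM in siCtrl and 76.7 to 160 FPKM in siRfx1 zygotes, of which Serpine2 made up 79.2, 78.9 and 65.7 FPKM in siCtrl and 69.7, 150 and 147 FPKM in siRfx1. In such bulk samples fewer cells of a type and less RNA per cell cannot be told apart. Sperm markers summed to 21.9 to 35.1 FPKM in siCtrl and 17.4 to 30.1 FPKM in siRfx1 zygotes, mostly Prm2, with 4 of 12 at 0, and blood markers to at most 1.45 FPKM, with none tested.

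At the 2-cell stage Rfx1 was at 10.7, 8.68 and 8.12 FPKM in siCtrl and at 1.43, 1.48 and 1.53 FPKM in siRfx1 embryos. The difference of the siRfx1 effect on Rfx1 between the stages was -0.03 on the log2 scale (SE 0.393, adjusted p = 0.979). Over all genes 1074 of 10801 (9.94%) differed in their siRfx1 effect between the stages, 748 higher (6.93%) and 326 lower (3.02%) in zygotes. The 2-cell siRfx1 libraries held 119 to 174 Mb of aligned bases against 727 to 967 Mb in their controls, and the median stage difference of all genes was 0.40, so each of these differences is read against that shift.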

How the data were processed

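RNA-seq of amplified cDNA was analysed for 3 siCtrl and 3 siRfx1 zygote libraries, with the other 17 libraries used only where named. The authors aligned reads to mm9 with STAR (2.5.2b in the submitters' notes) and ran StringTie (1.3.3b in the file headers, 1.3.4 in the notes) on RefSeq transcripts without a strand option. The deposited FPKM and coverage of each transcript and exon were used. The read counts that the study tested with edgeR were not analysed here.

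FPKM was summed per gene (22619 named genes from 29306 transcripts), and 976 transcripts without a name, 0.610 to 0.985% of FPKM, were left out. Coverage over FPKM gave the aligned bases. Each library was divided by a scale factor, its median ratio to the geometric mean over the genes that reach 1 FPKM in every library compared. Genes averaging 1 FPKM or above entered the test as log2(FPKM + 1), which understates changes of low genes, with limma 3.58.1 in R 4.3.3 (mean-variance trend, Benjamini-Hochberg over all genes tested), on the libraries compared only. A call needed an adjusted p below 0.05 together with a change of more than 2-fold. Of the genes tested 1001 (11.1%) share exonic bases with another named gene. Tables, motif searches on mm9 and the exact permutation test used Python 3.11.15, pandas 2.3.3 and numpy 2.4.6. The scripts were tested on simulated data.

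The members, lists and tests were chosen with earlier results of these data known, and the lists are described by counts and medians without a set test. Named genes were Rfx1 and its family, called genes of at least 5 FPKM without overlap, further genes by lowest p up to 10 a direction (at least 5 FPKM, fold above 1.5, no overlap), up to 3 members per list, the study's candidate factors, and the 5 lowest p a direction of the stage difference. Rcan3, the overlap partners, the genes found by exon coverage or by the direct comparisons and the motif genes were added after their values were seen. Alternatives were another pseudocount, filters, no rescaling, 4 groups in a single fit, the replicate block, voom on estimated reads, siEtv5 zygotes as the control, genes of at least 2 kb and each library left out. The library source is labelled genomic, which was read as a label for sequenced cDNA.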

Additional observations from a re-analysis of the deposited data

Results flagged for a closer look

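The siRfx1 effect differed between zygotes and 2-cell embryos, at an adjusted p under 0.05 in the limma test of the difference itself, for 28 of the genes named here, with 1074 of 10801 genes (9.94%) so called in all. Each value below is the log2 fold change in zygotes minus that in 2-cell embryos, and the median of all genes was 0.40, in libraries where the 2-cell siRfx1 embryos had 119 to 174 Mb of aligned bases. Of the genes named from the zygote comparison, the difference was 3.23 for 2310061J03Rik, 3.06 for Atpif1, 2.76 for Defb41, 2.35 for Fbxw14, 2.05 for Olfr283, 2.27 for 4931428L18Rik, 3.27 for Snord104, 1.89 for Azin1 and 1.88 for Etv5. It was -4.02 for Usf2, -2.86 for Ei24, -2.46 for Smurf2, -2.64 for Zar1, -2.60 for Mta3, -1.93 for Usp7, -1.84 for Brd1, -1.70 for H1foo and -1.52 for Gdf9. Usf2 was at 0.659, 1.50 and 0 FPKM in 2-cell siCtrl and at 14.7, 5.17 and 22.9 FPKM in 2-cell siRfx1 embryos, the opposite order of that in zygotes. Among the genes with the lowest p of this test, the difference was 5.82 for 4930539J05Rik, 5.52 for Rpl26, 4.75 for Fam96b, 4.13 for Atp6v1f and 4.09 for Dad1. Fam96b, which serves iron-sulphur cluster assembly, and Dad1, a subunit of the oligosaccharyltransferase, had values in every zygote library, while Fam96b was listed at 0 in all 3 2-cell siRfx1 libraries. It was -4.61 for Rbm25, -3.62 for Fam199x, -3.37 for Zc3h13, -3.11 for Rhpn2 and -2.91 for Chchd2. Rbm25, a splicing regulator, was at 38.4, 35.0 and 42.7 against 32.8, 29.5 and 25.3 FPKM in zygotes and at 23.6, 17.8 and 33.7 against 253, 495 and 459 FPKM in 2-cell embryos. For these 10 genes the difference lay mostly in the 2-cell values.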

How the results depend on the processing

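The count of 5 genes that passed fell to 2 with a pseudocount of 0.1 and with FPKM as deposited (Hnrnpab and Mir700 in both), to 2 among genes of at least 2 kb, to 1 with voom, to 1 when siEtv5 zygotes replaced the controls, and to 0 with no filter, with all 4 zygote groups in a single fit and with the replicate block. With each library left out in turn it lay between 2 and 8, with 8 without siCtrl replicate 2 and 2 without siRfx1 replicate 3, where Degs2 and Snora21 were lower and Hnrnpab was no longer called. These runs shared 0 to 2 of the 5 genes with the report, so the counts stand for mostly different genes, and 4 of the 5 were kept with a filter at 5 FPKM. Defb41 was called in no alternative. List members called, 1 in the report, were 0 with no filter, in the fit of 4 groups, with the replicate block and with siEtv5 as the control, and 0 to 4 without single libraries. Rfx1 did not reach the threshold in any alternative that gave it a value, at adjusted p-values of 0.0535 to 0.541. Against siEtv5 zygotes the count of 1 became 0 in the fit of 4 groups and 6 with the replicate block, against siMlx zygotes 10 became 6 (pseudocount 0.1), 0 (4 groups) and 20 (replicate block), and the stage difference went from 1074 to 1652 (FPKM as deposited) and 697 (replicate block). Same-numbered deviations correlated at -0.10, -0.11 and 0.06, and those of other pairs at -0.13 to 0.20. With 3 libraries a group these values cannot tell whether same-numbered libraries were collected together. Of 493 values of single genes under an alternative 426 kept direction and side of the threshold, and 16 turned direction, all of genes that had not passed. These were, with siEtv5 as the control, Rfx7 (0.20), Azin1 (-0.011), Nfya (0.31), Srebf1 (-0.17) and Mlx (-0.15), with FPKM as deposited Etv1 (-0.083) and Mlx (-0.072), and without single libraries Rfx5 (-0.37 to 0.019), Etv5 (-0.056 to 0.32), Klf7 (-0.33 to 0.29), Srebf1 (-0.12 to 0.34) and Mlx (-0.23 to 0.30). The medians relative to length class were chosen after seeing the data, and of 603 list medians under an alternative 59 moved beyond the spread between libraries. The cause of these shifts was not tested. A filter at 5 FPKM leaves no value for Rfx1 or Defb41.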
